A study of Mus musculus with 18 samples.

Results

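The transcripts of 9 coinhibitory receptor genes were followed in mouse CD8+ T cells sorted by the surface protein 41BB and stimulated in culture. The genes are Pdcd1, Lag3, Havcr2, Tigit, Ctla4, Vsir, Btla, Cd160 and Cd200. They were taken by name and found by Ensembl identifier among the 55487 genes of the count table. The rule that names them uses no measured value, but the genes were chosen with earlier results of these data known. All 9 were in the table, and all 9 passed the filter on low counts that left 13150 genes for testing. The cells came from spleens and lymph nodes of wild-type C57BL/6J mice, with no further treatment in vivo named. Cells positive for 41BB, which the series calls Tpam, and cells negative for it, called conventional, formed the 2 populations. RNA was extracted from the freshly sorted cells (0 h, no activation) or from cells cultured for 24 or 72 h with Dynabeads Mouse T-Activator CD3/CD28, beads that engage the T cell receptor and CD28. Each of the 6 groups, 41BB+ and 41BB- at each time, had 3 libraries, described as biological triplicates, and 18 libraries were analysed. The sample titles give each library an Exp number from 1 to 3, called the replicate number below. The age and sex of the mice, and whether a library came from 1 mouse or from several, are not stated in the labels.

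Coinhibitory receptors are surface proteins that dampen signalling by the T cell receptor and CD28. Most are scarce on resting T cells and appear after activation, and several stay high on T cells that meet antigen for a long time. PD-1 (Pdcd1) and BTLA recruit phosphatases through tyrosine motifs in their tails, CTLA-4 competes with CD28 for CD80 and CD86, and TIGIT competes with CD226 for CD155. LAG-3 binds MHC class II, TIM-3 (Havcr2) has several ligands including galectin-9, and BTLA and CD160 share the ligand HVEM. VISTA (Vsir) is present on resting T cells. CD200 is itself a ligand, whose inhibitory receptor sits mainly on myeloid cells, so the name of the group describes it only loosely.

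The sort and the cell type were checked first. Tnfrsf9, which encodes 41BB, measured 389 ± 27.5 CPM (counts per 1000000 counts of the library; mean ± SD, n = 3 here and below) in 41BB+ cells and 6.74 ± 1.74 in 41BB- cells at 0 h. At 24 h it stood at 138 ± 9.88 against 183 ± 11.3, and at 72 h it was lower in the cells sorted as 41BB+, at 21.2 ± 11.4 against 52.4 ± 8.68 (adjusted p = 0.000354, edgeR's quasi-likelihood test). The population names below are therefore those of the sort at 0 h. Cd8a ranged from 323 to 699 CPM over the 18 libraries, and Cd4 had 0 to 4 counts in each. At 0 h Cd8a was lower in 41BB+ cells, at 507 ± 63.9 against 638 ± 54.8 CPM (adjusted p = 0.0207, same test). Cd8b1 was also lower, at 399 ± 33.7 against 878 ± 98.4 CPM (adjusted p = 2.01e-07). Neither was called at 24 h, and at 72 h Cd8b1 was higher, at 803 ± 158 against 617 ± 131 CPM (adjusted p = 0.0351). Library totals ran from 3085241 to 4239795 counts, with a median of 3524157.5. CPM here are on these totals, whereas the tests use TMM (trimmed mean of M values) factors, which moved log2 differences by 0.12 at 24 h and by 0.15 between 24 and 72 h in 41BB- cells, and by at most 0.07 in size elsewhere.

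Before stimulation, 5 of the 9 genes were higher in 41BB+ cells and 2 were lower. Lag3, Cd200, Pdcd1, Havcr2 and Cd160 were the higher ones, and Ctla4 and Vsir were the lower ones. Tigit and Btla did not pass the test. Of all genes tested, 22.2% were called higher and 17.3% lower at this time, at an adjusted p under 0.05 (39.5% in either direction). The median log2 difference was 2.04 over the 9 genes and 0.01 over all genes tested. Fewer cells expressing a transcript and less RNA per cell cannot be told apart in these bulk libraries. Since nothing says that the libraries of a group came from separate mice, p-values measure the spread between these libraries.

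**Figure D1:**
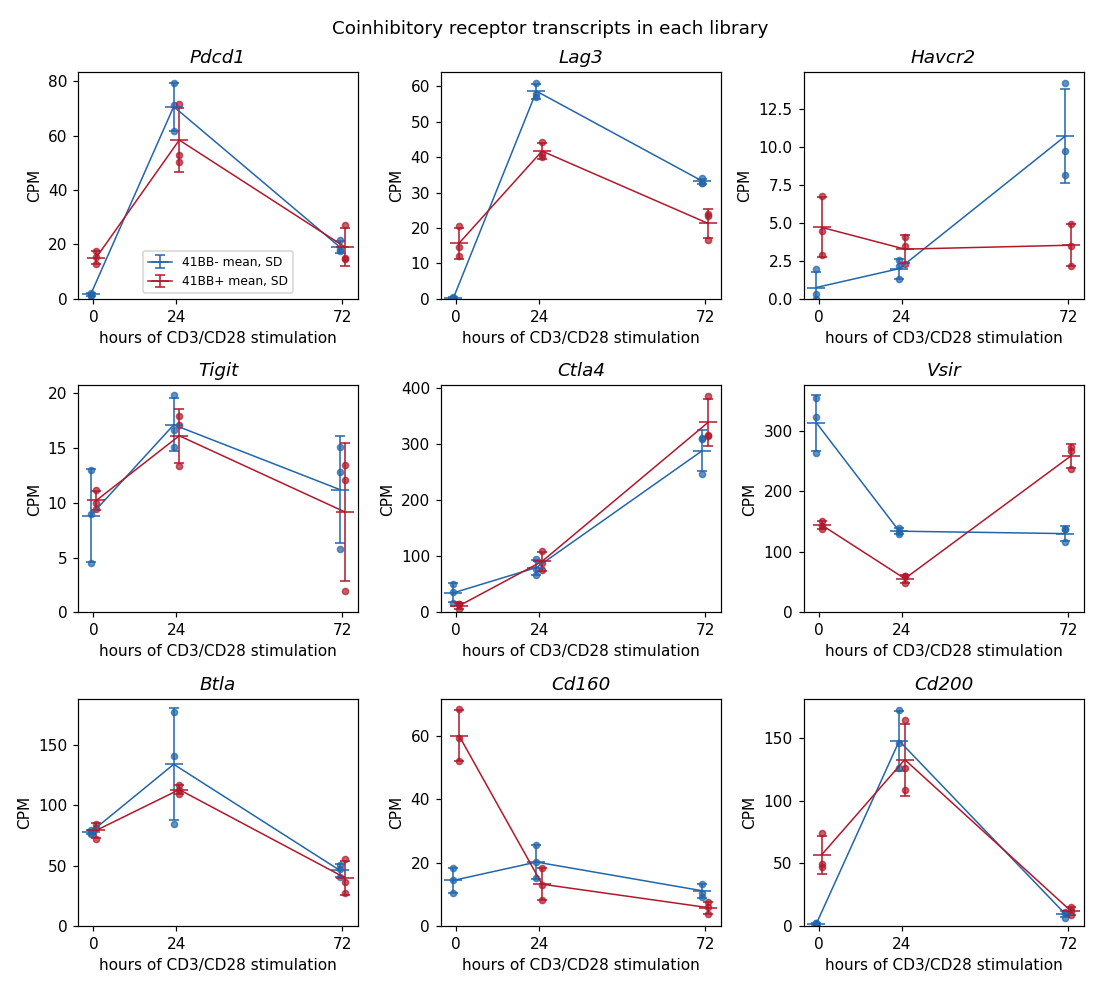
Level of each of the 9 genes in CPM (vertical axes, a separate linear scale for each gene) against hours of CD3/CD28 stimulation. Points are single libraries, and crossbars with error bars give the mean and SD of 3 libraries for 41BB- (blue) and 41BB+ (red) cells. Pdcd1, Lag3, Cd200, Btla and Tigit have their highest means at 24 h in both populations, Ctla4 has its highest at 72 h, and the Vsir lines cross between 24 and 72 h.

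PD-1 and LAG-3 are the receptors best known from exhausted T cells. Pdcd1 (ENSMUSG00000026285, chromosome 1, 94038305 to 94052553, minus strand, GRCm38) had 12.7, 17.7 and 15.3 CPM in the 3 41BB+ libraries at 0 h and 1.24, 2.27 and 1.51 in the 41BB- libraries. Every 41BB+ library lay above every 41BB- library. The difference was 8.92-fold (log2 3.16 ± 0.35 SE, adjusted p = 2.86e-08). Lag3 (ENSMUSG00000030124, chromosome 6, 124904361 to 124911705, minus strand) had 20.6, 12 and 14.5 CPM in 41BB+ cells and 0.31, 0 and 0.603 in 41BB- cells. The 41BB- values rest on 3 counts in all, against 167 in 41BB+ cells, a ratio of 50.1 with a 95% interval of 16.9 to 246 that covers counting error only. Lag3 was called higher (adjusted p = 5.39e-11), and its fitted log2 difference of 5.48 became 6.32 without 41BB- replicate 3, which held 2 of those 3 counts. Without 41BB- replicate 2, which held 0 counts, the difference was 4.96.

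TIM-3 marks terminally differentiated T cells and some myeloid cells. Havcr2 (ENSMUSG00000020399, chromosome 11, 46454935 to 46481255, plus strand) had 6.77, 2.86 and 4.47 CPM in 41BB+ cells at 0 h. The 41BB- libraries held 0, 1.94 and 0.302 CPM, so the groups did not overlap but the lowest 41BB+ library was close to the highest 41BB- library. The log2 difference was 2.61 ± 0.71 (adjusted p = 0.00414). It was 2.01 without 41BB- replicate 1 and 4.62 without replicate 2, and passed the test both times. The myeloid marker list, whose summed level was 20.3 to 35.8 CPM in 41BB+ and 24.4 to 28.5 CPM in 41BB- libraries at 0 h, had 6 of 8 genes with a count in each population; Itgam was at 0 in all 6 groups, and Cst3 supplied most of the sum. The sum of the dendritic cell list was 37.8 to 109 CPM in 41BB+ and 22.3 to 40.2 CPM in 41BB- libraries at 0 h, with all 8 genes having a count in each population. None of its 4 tested genes was called by edgeR's test, with 1 at an unadjusted p under 0.05 and 0 called by DESeq2, and Itgax had 16.4 ± 9.35 against 5.02 ± 1.29 CPM. The part of these markers in the Havcr2 difference was not tested.

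CD160 and CD200 are found on subsets of T cells. Cd160 (ENSMUSG00000038304, chromosome 3, 96798763 to 96829351, minus strand) had 68.6, 59.5 and 52.3 CPM in 41BB+ and 18.3, 10.4 and 14.5 CPM in 41BB- cells at 0 h. The groups were well apart, with a 4.12-fold difference (log2 2.04 ± 0.27, adjusted p = 6.62e-07). CD160 is also found on natural killer cells, and the 6 killer cell markers followed here summed to 3.72 to 6.58 CPM in 41BB+ and 1.94 to 6.20 CPM in 41BB- libraries at 0 h. Their part in the Cd160 difference was not tested. Cd160 shares 68 exon bases with Pdzk1 on the opposite strand, and Pdzk1 itself had 0 to 9 counts per library. Cd200 (ENSMUSG00000022661, chromosome 16, 45382135 to 45409053, minus strand) had 74.5, 49.2 and 47.3 CPM in 41BB+ and 0.62, 1.94 and 2.11 CPM in 41BB- cells. The sorted 41BB- cells thus held almost none of it, and the difference was 35.3-fold (log2 5.14 ± 0.33, adjusted p = 2.22e-12).

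CTLA-4 and VISTA went the other way. Ctla4 (ENSMUSG00000026011, chromosome 1, 60887000 to 60915832, plus strand) had 14.1, 14.9 and 6.05 CPM in 41BB+ and 50.8, 36.0 and 17.5 CPM in 41BB- cells at 0 h. The 41BB- libraries were widely spread, yet all lay above the 41BB+ libraries, and Ctla4 was 3.02-fold lower in 41BB+ cells (log2 -1.59 ± 0.36, adjusted p = 0.00246). CTLA-4 is abundant on regulatory T cells, and the list of CD4 and regulatory T cell markers stood the other way round, with sums of 186 to 212 CPM in 41BB+ and 62.7 to 80.6 in 41BB- libraries. In that list Ikzf2 had 107 against 36.7 CPM, Il2ra 56.4 against 3.34 and Foxp3 2.91 ± 1.97 against 0.516 ± 0.895, and these 3 of the 7 tested were called higher. None was called lower, and Tnfrsf18 (22.0 against 24.2 CPM), Cd40lg (0.945 against 1.56) and Cd4 (0.0877 against 0.216) had slightly lower means in 41BB+ cells. Their part in the Ctla4 difference was not tested. Vsir (ENSMUSG00000020101, chromosome 10, 60346851 to 60372684, plus strand) had 138, 142 and 151 CPM in 41BB+ and 263, 354 and 323 CPM in 41BB- cells. It was 2.19-fold lower in 41BB+ cells (log2 -1.13 ± 0.12, adjusted p = 1.27e-08). The gene lies within Cdh23, which is on the opposite strand, and shares no exon base with it.

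TIGIT and BTLA showed no called difference at 0 h. Tigit (ENSMUSG00000071552, chromosome 16, 43648867 to 43664146, minus strand) had 11.2, 9.44 and 9.99 CPM in 41BB+ and 8.99, 13.0 and 4.52 CPM in 41BB- cells. The 41BB- libraries lay on both sides of the 41BB+ libraries (log2 0.20 ± 0.46, adjusted p = 0.779). Btla (ENSMUSG00000052013, chromosome 16, 45224315 to 45257670, plus strand) had 81.3, 84.1 and 72.3 CPM against 79.3, 77.1 and 76.6 CPM. Its difference was 0.01 ± 0.21 on the log2 scale (adjusted p = 0.969), the smallest in size of the 9 genes. Tigit, Btla and Cd200 are on the same chromosome, and only 124464 bases separate Btla from Cd200, the gene of the 9 with the smallest adjusted p at 0 h.

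**Figure D2:**
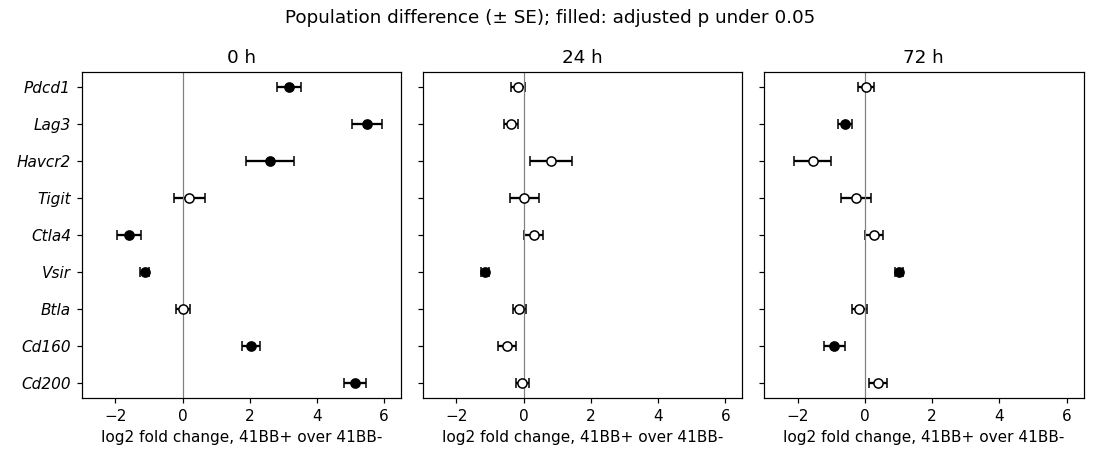
Fitted log2 fold change of 41BB+ over 41BB- cells (horizontal axis, with SE as bars) for the 9 genes at 0, 24 and 72 h. Filled points have an adjusted p under 0.05. There are 7 filled points at 0 h, 1 at 24 h (Vsir, left of the line) and 3 at 72 h, where Vsir lies right of the line.

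The promoter sequences of 4 genes are shown, chosen for the courses of these genes. Pdcd1 and Cd200 shared a course and rose and then fell in both populations, Vsir had a course of its own, and Cd160 was highest in unstimulated 41BB+ cells. RefSeq (GRCm38.p6) held entries for 8 of the 9 genes, and Lag3 was the exception. Each sequence is the 250 bases before the RefSeq transcription start, 5′ to 3′ on the gene's strand, and overlaps no annotated exon. Capitals mark matches on either strand to 5 motifs: the NFAT core GGAAA, the AP-1 site TGANTCA, the RUNX site TGTGGT, the T-box element GGTGTGA and the TCF core CTTTGA. NFAT and AP-1 act downstream of the T cell receptor, RUNX and T-box factors act in CD8+ T cell differentiation, and TCF-1 is tied to memory and stem-like T cells. The Pdcd1 window is chr1:94052554-94052803, minus strand, that of Cd200 is chr16:45409054-45409303, minus strand, that of Vsir is chr10:60346601-60346850, plus strand, and that of the second Cd160 start is chr3:96814522-96814771, minus strand.
Pdcd1: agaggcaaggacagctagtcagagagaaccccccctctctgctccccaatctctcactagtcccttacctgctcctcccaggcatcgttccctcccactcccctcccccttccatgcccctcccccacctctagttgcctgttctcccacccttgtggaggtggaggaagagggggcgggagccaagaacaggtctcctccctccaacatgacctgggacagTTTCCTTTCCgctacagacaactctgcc
Cd200: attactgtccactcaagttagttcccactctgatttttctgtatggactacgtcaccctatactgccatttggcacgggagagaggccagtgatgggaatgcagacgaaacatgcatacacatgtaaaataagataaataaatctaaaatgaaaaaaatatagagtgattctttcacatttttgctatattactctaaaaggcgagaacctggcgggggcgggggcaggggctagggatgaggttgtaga
Vsir: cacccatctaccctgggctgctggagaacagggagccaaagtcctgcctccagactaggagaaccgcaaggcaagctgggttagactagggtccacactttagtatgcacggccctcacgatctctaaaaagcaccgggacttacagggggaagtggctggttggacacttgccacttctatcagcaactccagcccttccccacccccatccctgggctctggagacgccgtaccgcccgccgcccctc
Cd160: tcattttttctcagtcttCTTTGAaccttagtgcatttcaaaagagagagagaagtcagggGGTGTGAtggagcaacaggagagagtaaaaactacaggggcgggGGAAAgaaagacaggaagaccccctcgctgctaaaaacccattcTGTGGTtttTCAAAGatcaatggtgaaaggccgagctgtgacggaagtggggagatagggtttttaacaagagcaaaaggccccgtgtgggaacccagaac

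The Pdcd1 window held 2 adjoining NFAT cores, at 28 to 24 and 23 to 19 bases before the start, both on the opposite strand (TTTCC). The windows of Cd200 and Vsir held none of the 5 motifs. The window of the second Cd160 start held 1 NFAT core, 1 RUNX site, 1 T-box element and 2 TCF cores. That of the first Cd160 start, not shown, held only 1 RUNX site and overlaps 2 annotated exons. Among the other genes, Tigit had 2 NFAT cores and 1 RUNX site, Ctla4 1 NFAT core, Havcr2 1 AP-1 and 1 RUNX site, and Btla 1 RUNX site. Of 32536 RefSeq promoter windows of the same length, 55.7% held the NFAT core, 6.73% the AP-1 site, 14.0% the RUNX site, 3.33% the T-box element and 13.9% the TCF core. These matches describe the letters in the windows, and no binding was measured.

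Over the first 24 h of stimulation most of the genes rose, from different starting points in the 2 populations. In 41BB- cells 5 of the 9 genes rose, against 29.0% of all genes tested, and 1 fell, against 27.6% (56.6% in either direction). In 41BB+ cells 5 rose, against 18.1%, and 2 fell, against 16.5% (34.6% in either direction). Pdcd1, Lag3, Ctla4, Btla and Cd200 rose in both, and Vsir fell in both. The median log2 change of the 9 genes was 1.12 in 41BB- cells (-0.07 over all genes) and 0.70 in 41BB+ cells (-0.06 over all genes). The interval to 72 h that follows uses the same 24 h libraries as its starting point.

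Pdcd1 reached 61.6, 71.4 and 79.3 CPM in 41BB- and 53.0, 50.4 and 71.8 CPM in 41BB+ cells at 24 h. It thus rose 39.5-fold in 41BB- cells (log2 5.30 ± 0.32, adjusted p = 4.66e-14) and 3.96-fold in 41BB+ cells (log2 1.99 ± 0.23, adjusted p = 7.19e-08). Cd200 reached 126, 146 and 173 CPM in 41BB- and 109, 126 and 165 CPM in 41BB+ cells. It rose 88.2-fold in the former (adjusted p = 2.51e-15) and 2.43-fold in the latter (adjusted p = 1.12e-05). Lag3 reached 57.8, 61.0 and 57.1 CPM in 41BB- and 40.0, 40.8 and 44.2 CPM in 41BB+ cells. From its 3 counts at 0 h the ratio in 41BB- cells was 189, with a 95% counting interval of 64.3 to 918 (adjusted p = 3.01e-15), and the rise in 41BB+ cells was 2.76-fold (adjusted p = 3.35e-06).

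The difference between the 2 rises was tested as an interaction, the change in 41BB+ minus the change in 41BB- cells. Over 0 to 24 h, 4 of the 9 genes had a lower change in 41BB+ cells, against 14.0% of all genes tested, and 1 had a higher change, against 9.03% (23.0% in either direction). The interaction was -3.32 ± 0.42 for Pdcd1 (adjusted p = 7.18e-07), -5.86 ± 0.50 for Lag3 (1.2e-09) and -5.18 ± 0.40 for Cd200 (4.62e-10), all on the log2 scale. These 3 genes rose in both populations, and by less where they began higher. The interaction is also the population difference at 24 h minus that at 0 h, and none of the 3 was called at 24 h. It is thus not independent of their 0 h differences, which come from the same libraries. Without 41BB- replicate 3 at 0 h the Lag3 interaction was -6.70, and over all 19 alternatives it ran from -6.70 to -5.34.

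Ctla4 had the opposite interaction. It rose from the low 41BB+ values at 0 h to 109, 87.5 and 75.9 CPM at 24 h, and from the 41BB- values to 94.8, 77.6 and 67.0 CPM. The rise was 8.09-fold in 41BB+ cells (log2 3.02 ± 0.34, adjusted p = 5.24e-06) and 2.18-fold in 41BB- cells (log2 1.12 ± 0.30, adjusted p = 0.00534), with an interaction of 1.89 ± 0.46 (adjusted p = 0.00733). Cd160 fell 4.37-fold in 41BB+ cells, to 13.0, 8.22 and 18.4 CPM (adjusted p = 4.5e-07). In 41BB- cells its level was 15, 20.1 and 25.6 CPM at 24 h, overlapping that at 0 h (log2 0.41 ± 0.28, adjusted p = 0.215). The Cd160 interaction was -2.54 ± 0.39 (adjusted p = 1.54e-05).

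Vsir fell in both populations, and the difference between its falls did not pass the test. It dropped to 59.5, 59.6 and 47.8 CPM in 41BB+ and to 139, 133 and 129 CPM in 41BB- cells. The fall was 2.50-fold in 41BB+ cells (adjusted p = 2.52e-09) and 2.47-fold in 41BB- cells (adjusted p = 3.46e-10), with an interaction of -0.02 ± 0.17 (adjusted p = 0.967). Btla rose to 113, 109 and 117 CPM in 41BB+ cells and to 84.6, 177 and 141 CPM in 41BB- cells. The rises were modest, at 1.48-fold (adjusted p = 0.0399) and 1.64-fold (adjusted p = 0.0059). The one in 41BB+ cells did not pass without 41BB+ replicate 1 or 3 at 0 h or without replicate 1 or 3 at 24 h (adjusted p = 0.0562 to 0.0848).

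Tigit and Havcr2 did not pass the test over this interval in either population. Tigit had 17.9, 13.3 and 17.1 CPM in 41BB+ and 19.8, 16.6 and 15.1 CPM in 41BB- cells at 24 h, above every 0 h library of its own population (log2 0.70 ± 0.44, adjusted p = 0.224, and 0.88 ± 0.44, adjusted p = 0.0932). Fitted on the compared groups alone, both Tigit changes passed (adjusted p = 0.0472 and 0.0331). The change in 41BB- cells also passed without a filter on low counts (0.0237) and without replicate 2 at 0 h (0.0376). Havcr2 stayed low, at 2.27, 3.45 and 4.09 CPM in 41BB+ and 1.28, 2.13 and 2.56 CPM in 41BB- cells. Its log2 change in 41BB- cells was 1.33 ± 0.76 (adjusted p = 0.137), and 3.39 (adjusted p = 0.00694) without 41BB- replicate 2 at 0 h, the library that held 6 of that group's 7 counts. Of the alternatives run, only the omission of that library brought its interaction past the test (-1.79, adjusted p = 0.2, with it, and -3.80, adjusted p = 0.0192, without it).

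At 24 h Vsir was the 1 gene of the 9 that differed between the populations, against 2.75% of all genes in either direction and 1.07% lower. It was 2.22-fold lower in 41BB+ cells (log2 -1.15 ± 0.13, adjusted p = 2.85e-06). No gene of the 9 was called higher by edgeR's test, against 1.67% of all genes, nor did any have an unadjusted p under 0.05 in that direction. Lag3 was lower in all 3 41BB+ libraries without passing (log2 -0.38 ± 0.20, adjusted p = 0.456). The other 7 genes overlapped between the populations, with log2 differences from -0.50 for Cd160 to 0.82 for Havcr2 and adjusted p from 0.517 to 0.995.

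Between 24 and 72 h the genes parted again. In each population 2 of the 9 rose and 5 fell. Among all genes 26.2% rose and 26.3% fell in 41BB+ cells (52.5% in either direction), and 22.6% rose and 18.2% fell in 41BB- cells (40.8% in either direction). Ctla4 rose, and Pdcd1, Lag3, Btla, Cd160 and Cd200 fell, in both populations, while the other rise was of Vsir in 41BB+ and of Havcr2 in 41BB- cells. The median log2 change of the 9 genes was -0.90 in 41BB+ cells (0.03 over all genes) and -0.67 in 41BB- cells (0.04 over all genes).

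Ctla4 reached 313, 315 and 385 CPM in 41BB+ and 246, 308 and 310 CPM in 41BB- cells at 72 h. These were its highest levels of the 6 groups, after a 3.91-fold rise in 41BB+ (adjusted p = 2.16e-05) and a 4.01-fold rise in 41BB- cells (adjusted p = 3.31e-05). Cd200 fell the most, 10.6-fold to 9.05, 15.4 and 11.6 CPM in 41BB+ cells (adjusted p = 1.66e-12) and 14.2-fold to 10.5, 11.3 and 6.60 CPM in 41BB- cells (adjusted p = 1.63e-12). In 41BB+ cells it ended below its level before stimulation, and in 41BB- cells above it, with no overlap between the 0 and 72 h libraries. Pdcd1 fell 2.91-fold to 15.1, 14.8 and 27.2 CPM in 41BB+ (adjusted p = 1.31e-06) and 3.34-fold to 18.2, 21.5 and 17.7 CPM in 41BB- cells (adjusted p = 3.37e-07).

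Lag3 kept more of its 24 h level. It fell 1.86-fold to 23.9, 16.6 and 23.4 CPM in 41BB+ (adjusted p = 0.000592) and 1.59-fold to 34.0, 32.8 and 32.8 CPM in 41BB- cells (adjusted p = 0.00742). Btla fell 2.70-fold to 36.5, 27.4 and 55.5 CPM in 41BB+ (adjusted p = 7.3e-06) and 2.62-fold to 50.6, 40.4 and 47.4 CPM in 41BB- cells (adjusted p = 1.43e-05). All 72 h libraries of Btla lay below all of its 0 h and 24 h libraries. Cd160 fell 2.18-fold to 3.84, 7.56 and 5.93 CPM in 41BB+ cells (adjusted p = 0.00378, and 0.0556 without 41BB+ replicate 3 at 24 h). Its 1.64-fold fall in 41BB- cells, to 10.5, 9.30 and 13.4 CPM, was near the threshold (adjusted p = 0.047) and was lost without replicate 2 or 3 at 24 h or replicate 1 or 2 at 72 h (0.0655 to 0.161).

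Vsir and Havcr2 were the 2 genes whose change from 24 to 72 h differed between the populations. Vsir rose 4.86-fold to 266, 273 and 236 CPM in 41BB+ cells (log2 2.28 ± 0.13, adjusted p = 1.64e-14). In 41BB- cells it stayed at 138, 137 and 116 CPM (log2 0.11 ± 0.12, adjusted p = 0.502). The interaction was 2.17 ± 0.18 (adjusted p = 6.37e-09), for the 1 gene of the 9 with a higher change in 41BB+ cells, against 6.10% of all genes. Havcr2 had 4.94, 3.49 and 2.15 CPM in 41BB+ cells, and rose 5.84-fold to 9.75, 8.14 and 14.2 CPM in 41BB- cells (log2 2.55 ± 0.59, adjusted p = 0.000987). Its interaction of -2.38 ± 0.84 just passed (adjusted p = 0.0486), for the 1 gene with a lower change, against 11.4% (17.5% in either direction). It failed under 14 of 19 alternatives, 10 of them the omission of 1 library (0.0597 to 0.147 there). Of the 12 libraries, 41BB+ replicate 1 at 24 h and at 72 h were the ones whose omission kept it.

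**Figure D3:**
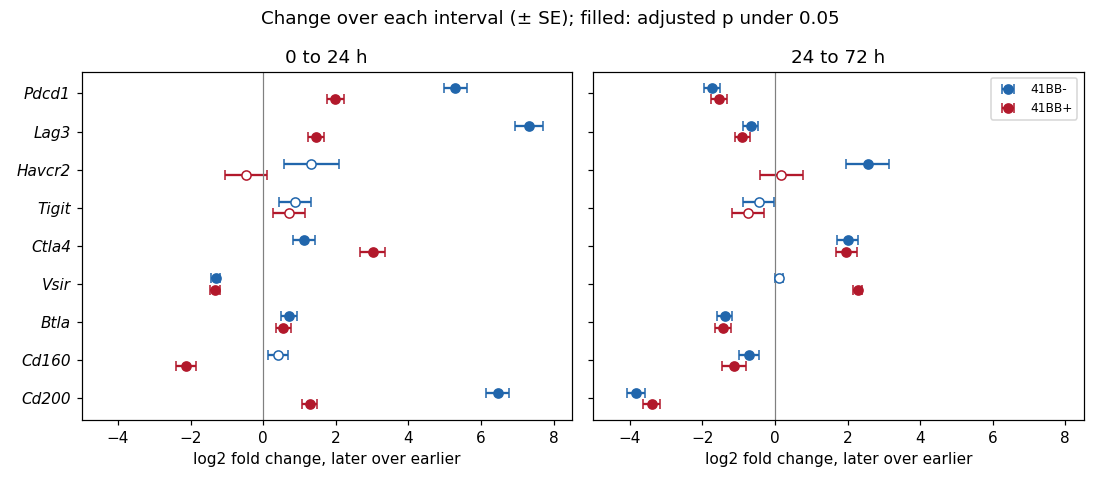
Fitted log2 fold change of the later over the earlier time (horizontal axes, with SE as bars) for the 9 genes in 41BB- (blue) and 41BB+ (red) cells, from 0 to 24 h and from 24 to 72 h. Filled points have an adjusted p under 0.05. From 0 to 24 h the blue points of Pdcd1, Lag3 and Cd200 lie far right of the red ones, and from 24 to 72 h the populations part for Havcr2 and Vsir.

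At 72 h 1 of the 9 genes was higher in 41BB+ cells, against 6.71% of all genes, and 2 were lower, against 12.2% (18.9% in either direction). Vsir was 2.03-fold higher (log2 1.02 ± 0.12, adjusted p = 8.63e-07), the reverse of its place at 0 and 24 h, and every 41BB+ library lay above every 41BB- library. Lag3 was 1.52-fold lower (log2 -0.60 ± 0.21, adjusted p = 0.0424) and Cd160 1.89-fold lower (log2 -0.91 ± 0.32, adjusted p = 0.0454), again without overlap. Both lost their call under 9 of 13 alternatives, and 5 omissions of a single library for Cd160 and all 6 for Lag3 were among these. Without 41BB+ replicate 2, the lowest Lag3 library, the Lag3 log2 difference was -0.39 (adjusted p = 0.275), and without 41BB+ replicate 1, the lowest Cd160 library, the Cd160 difference was -0.63 (0.236). Havcr2 narrowly missed the threshold (log2 -1.56 ± 0.56, adjusted p = 0.0505) with all 41BB+ libraries below the 41BB- libraries, and passed it on the compared groups alone (0.031) and with DESeq2 (0.0191). The log2 differences of the others were 0.27 for Ctla4 (adjusted p = 0.553, all 41BB+ libraries above), 0.04 for Pdcd1, -0.27 for Tigit, -0.17 for Btla and 0.38 for Cd200, none past the test.

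Cell type markers were also compared between the populations, mainly at 72 h. Foxp3 measured 18.1 ± 7.87 CPM in 41BB+ and 5.13 ± 2.41 in 41BB- cells (adjusted p = 0.0178), and Ikzf2 536 against 204 CPM (adjusted p = 1.8e-05). In the same list Il2ra was lower in 41BB+ cells (174 against 407 CPM, adjusted p = 0.00065), as was Cd40lg (0.918 against 4.21 CPM, adjusted p = 0.0326), and Cd4 had 2 counts in all 3 41BB+ libraries together. The sums of the regulatory list ranged from 614 to 896 CPM in 41BB+ and from 691 to 726 in 41BB- libraries, and all 8 of its genes had a count. The summed level of the 8 T cell markers was 3950 to 4210 CPM in 41BB- and 2710 to 2920 in 41BB+ libraries at 0 h, 1960 to 2000 and 1530 to 1630 at 24 h, and 2390 to 2860 and 2910 to 3350 at 72 h. Like Vsir, this sum was lower in 41BB+ cells at 0 and 24 h and higher at 72 h. Unlike Vsir, none of the 8 markers was called at 24 h by edgeR's test (median log2 difference -0.18), with 3 at an unadjusted p under 0.05. From 24 to 72 h in 41BB- cells the sum rose (7 of 8 markers called higher, median log2 change 0.58) where Vsir was not called. B cell markers ranged from 435 to 518 CPM in 41BB- and from 558 to 623 in 41BB+ libraries at 72 h, with Ighm giving most of the sum. The endothelial and stromal list, nearly all of it Pecam1, which T cells also express, took the same signs as Vsir. Pecam1 had 115 against 227 CPM at 0 h (adjusted p = 0.000166), 26.1 against 38.0 at 24 h (adjusted p = 0.456) and 237 against 113 at 72 h (adjusted p = 0.000188), while Cdh5 and Kdr were at or below 0.878 CPM on average in every group. Gamma-delta and innate-like T cell markers summed to at most 27.6 CPM in any library. At 24 h the myeloid list was uneven, with sums of 16.9 to 89.1 CPM in 41BB+ and 14.2 to 26.2 in 41BB- libraries. Lyz2 had 15.3 ± 26.5 against 2.29 ± 3.96 CPM and Csf1r 3.62 ± 6.27 against 0.832 ± 0.918, each SD above its mean. The dendritic cell sums at 24 h were 15.1 to 53.0 against 17.2 to 25.8 CPM. The part of all these markers in the Vsir, Ctla4, Btla and Havcr2 values was not tested.

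Over the whole course from 0 to 72 h, 5 of the 9 genes had a lower change in 41BB+ than in 41BB- cells, against 23.3% of all genes, and 2 a higher change, against 17.6% (40.9% in either direction). The interactions were -3.12 ± 0.43 for Pdcd1, -6.09 ± 0.50 for Lag3, -4.17 ± 0.91 for Havcr2, -2.96 ± 0.42 for Cd160 and -4.76 ± 0.46 for Cd200, and 1.86 ± 0.45 for Ctla4 and 2.15 ± 0.17 for Vsir. Adjusted p ran from 3.98e-11 for Vsir to 0.00354 for Ctla4. These are the same 7 genes that differed at 0 h, each with the sign opposite to its 0 h difference, and both quantities use the 0 h libraries. Havcr2 rested on few counts, with -3.52 without 41BB- replicate 1 and -6.12 without replicate 2 at 0 h. For Lag3 the values without 41BB- replicate 2 or 3 at 0 h were -5.50 and -6.86.

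Each gene had its own order of levels over the 6 groups. For Pdcd1, Lag3, Tigit, Btla and Cd200 the order began with 41BB- cells at 24 h, followed by 41BB+ cells at 24 h, and of these 5 genes only Lag3 had no overlap between the 2 groups. Ctla4 was highest in 41BB+ cells at 72 h and lowest in 41BB+ cells at 0 h, and only its 2 groups at 24 h overlapped among neighbours in its order. Vsir was highest in 41BB- cells at 0 h, which overlapped 41BB+ cells at 72 h, and lowest in 41BB+ cells at 24 h, which overlapped no other group. Cd160 stood alone at the top in 41BB+ cells at 0 h, and Havcr2 in 41BB- cells at 72 h. All neighbouring groups in the order of Tigit overlapped, although the libraries of both 24 h groups lay above those of both 0 h groups, and its lowest library, 41BB+ replicate 1 at 72 h at 1.92 CPM, lay far from the other 2 of its group at 13.4 and 12.1.

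Levels of different genes were compared per kilobase of merged exon. Before stimulation Vsir led in 41BB- cells at 62.5 ± 9.18 CPM per kilobase, ahead of Btla at 22.9 ± 0.424 and Ctla4 at 14.9 ± 7.17, and Lag3 was last at 0.144 ± 0.143. In 41BB+ cells at 0 h the leading levels were closer, at 28.7 ± 1.37 for Vsir, 23.3 ± 1.81 for Btla, 22.8 ± 3.09 for Cd160 and 17.2 ± 4.57 for Cd200. At 24 h Cd200 had the highest mean in both populations, at 44.7 ± 7.15 in 41BB- and 40.1 ± 8.70 in 41BB+ cells, within the SD of the next gene each time. At 72 h Ctla4 led with 124 ± 15.6 in 41BB- and 145 ± 17.6 CPM per kilobase in 41BB+ cells, 4.77 and 2.82 times the next gene, which was Vsir. Havcr2 was last in 41BB+ cells at all 3 times. With the length of the longest transcript in place of merged exons, Cd200 rose from 17.2 to 24.3 CPM per kilobase in 41BB+ cells at 0 h, above Cd160 at 23.2, and its place there is within that choice. The levels of the 9 genes summed to 398 ± 27.6 CPM in 41BB+ and 453 ± 38.4 in 41BB- cells at 0 h, 525 ± 32.7 and 664 ± 56.7 at 24 h, and 707 ± 45.6 and 559 ± 31.5 at 72 h.

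**Figure D4:**
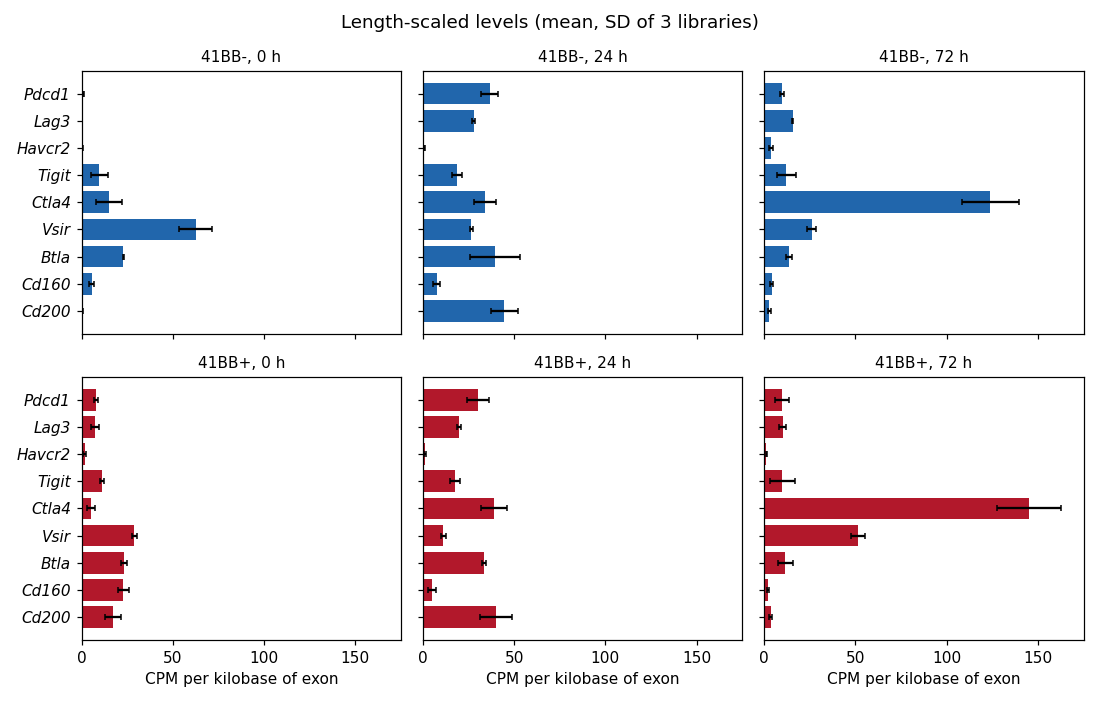
Mean level of each of the 9 genes in CPM per kilobase of merged exon (horizontal axes, linear from 0), with the SD of 3 libraries as error bars, in each of the 6 groups. Vsir has the longest bar at 0 h, several genes are level at 24 h, and Ctla4 has the longest bar at 72 h in both populations.

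The courses of the 9 genes were compared by Pearson's r of log2 CPM over the 18 libraries, given as a description, since libraries of a group share time and population. Pdcd1 and Lag3 were the most alike (r = 0.94), and Cd200 followed both (0.88 with Pdcd1 and 0.78 with Lag3). Vsir ran against these 3, with r of -0.74, -0.66 and -0.78, and Ctla4 ran against Cd160 (-0.81). Ctla4 and Vsir, both lower in 41BB+ cells at 0 h, had an r of 0.02 over the libraries.

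**Figure D5:**
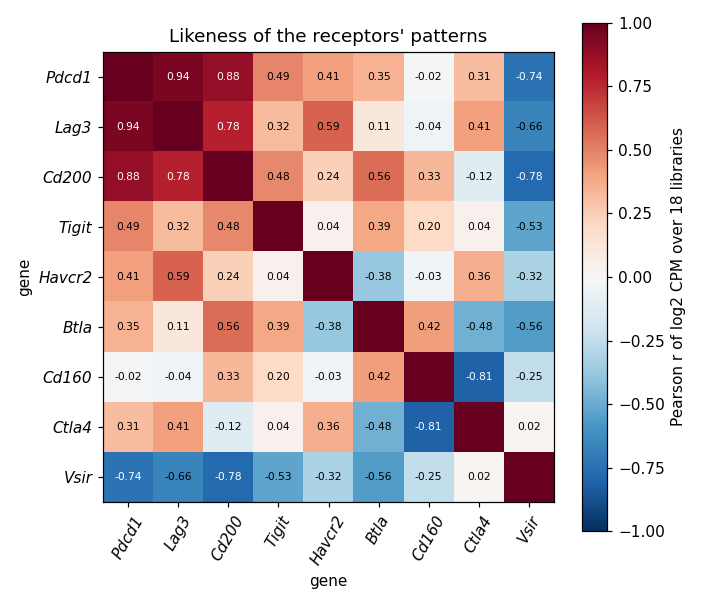
Pearson's r of log2 CPM over the 18 libraries for each pair of the 9 genes, with red for positive and blue for negative values and the value printed in each cell. Pdcd1, Lag3 and Cd200 form a red block, and Vsir is blue against all 3.

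Among 9420 genes with a mean of at least 5 CPM, those most like each receptor over the same 18 libraries were found. For Pdcd1 they were Eea1 (r = 0.974), an endosomal tethering protein, and Ybx3 (0.971), a nucleic acid binding protein. For Lag3 they were Fignl1 (0.984) and Mcm10 (0.979), a replication factor, and for Ctla4 Racgap1 (0.964), a cytokinesis protein, and Dck (0.959), deoxycytidine kinase. Cd200 was most like Lad1 (0.973) and the chaperone gene Hspa8 (0.967), and Vsir most like Pik3ip1 (0.973), an inhibitor of PI3 kinase, and Crebrf (0.969). Btla was nearest Polr3a (0.912), a subunit of RNA polymerase III, and Gpn1 (0.908), and Cd160 nearest Tmtc4 (0.90) and Slamf7 (0.898), a receptor of lymphocytes. Tigit and Havcr2 had no close match: Tigit was nearest Rgl1 (0.797) and Entpd1 (0.774), which encodes the ectonucleotidase CD39, and Havcr2 nearest Fkbp5 (0.855) and the pseudogene Rps2-ps6 (0.851), whose count is uncertain.

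The counts in the gene lists below are to be read against all genes tested, of which 22.2% were called higher and 17.3% lower in 41BB+ cells at 0 h, 1.67% and 1.07% at 24 h, and 6.71% and 12.2% at 72 h, with median log2 differences of 0.01, 0.02 and -0.04. Of 19 ligands of these receptors 15 were tested, and at 0 h 1 was higher and 5 were lower in 41BB+ cells. Pdcd1lg2, which encodes the PD-1 ligand PD-L2, had 13.3 ± 1.87 CPM in 41BB+ and 3.71 ± 3.26 in 41BB- cells (log2 1.84 ± 0.57, adjusted p = 0.0112). Selplg, the gene of PSGL-1, a binding partner of VISTA, was lower, at 105 ± 17.8 against 347 ± 17.3 CPM (log2 -1.74 ± 0.14, adjusted p = 3.69e-11). At 24 h Cd274, which encodes PD-L1, was the 1 ligand called, lower in 41BB+ cells at 57.6 ± 11.3 against 120 ± 9.96 CPM (log2 -0.95 ± 0.20, adjusted p = 0.00752). At 72 h 2 were higher and 1 lower: H2-K1 (log2 0.39, adjusted p = 0.00375) and Cd80, a ligand of CTLA-4 named after its value was seen (log2 1.35, adjusted p = 0.0491), were higher, and Hmgb1 (log2 -0.53, adjusted p = 0.0138) was lower. H2-K1 was among those lower at 0 h (log2 -0.26, adjusted p = 0.0268). Cd80 was widely spread, at 124 ± 78.0 CPM in 41BB+ and 49.7 ± 13.6 in 41BB- cells. DESeq2 called 2 ligands in all at 72 h. The median log2 difference of the tested ligands was 0.14, 0.19 and 0.17 at the 3 times.

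Of the costimulatory receptors that share ligands or family with the 9 genes, 9 of 10 were tested. In 41BB+ cells 2 of them were higher and 4 lower at 0 h, 1 was higher at 24 h, and 3 were higher at 72 h, with medians of -0.44, 0.09 and 0.53. Tnfrsf4, which encodes OX40, was higher at 0 h (6.38 ± 0.601 against 3.22 ± 0.111 CPM, adjusted p = 0.0281) and Cd2 lower (184 ± 11.3 against 393 ± 32.5 CPM, adjusted p = 1.92e-07). Icos was higher at 24 h (105 ± 23.5 against 66.6 ± 0.419 CPM, adjusted p = 0.0113), but lower at 0 h (log2 -0.63, adjusted p = 0.00632). Cd96, a receptor for the TIGIT ligand CD155, was lower in 41BB+ cells at 0 h (123 ± 9.32 against 216 ± 25.4 CPM, adjusted p = 3.16e-05) and higher at 72 h (227 ± 37.5 against 127 ± 24.5 CPM, adjusted p = 7.39e-05), as Vsir was. Of 17 other inhibitory receptors 10 were tested, with 1 higher and 2 lower at 0 h, none called at 24 h, and 1 higher at 72 h, and medians of -0.21, -0.16 and 0.09. Cd96 is on both lists, and is 1 of the 2 lower at 0 h and the 1 higher at 72 h. At 24 h 5 of them had an unadjusted p under 0.05 in edgeR's test and DESeq2 called 1. Klrc1, which encodes NKG2A, was the higher one at 0 h (15.4 ± 1.81 against 2.96 ± 2.39 CPM, adjusted p = 0.000831).

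Partners of the receptors in signalling, trafficking and shedding numbered 25, all tested. In 41BB+ cells 8 of them were higher and 3 lower at 0 h, 2 higher and 2 lower at 24 h, and 8 higher and 3 lower at 72 h, with medians of 0.08, 0.07 and 0.01. At 0 h these 11 of 25 are a share near the 39.5% of all genes called. Dgka, a diacylglycerol kinase that limits T cell receptor signalling, was lower at 0 h (320 ± 8.27 against 1050 ± 65.6 CPM, adjusted p = 2.52e-13) and at 24 h (log2 -0.66, adjusted p = 0.00038), and higher at 72 h (858 ± 93.6 against 562 ± 17.5 CPM, adjusted p = 3.32e-05), the same order of signs as Vsir. Stt3a, a subunit of the enzyme that attaches N-glycans, was higher at 0 h (141 ± 8.55 against 68.3 ± 8.74 CPM, adjusted p = 5.07e-07). At 72 h it was lower (log2 -0.61, adjusted p = 0.00208). Trat1, an adaptor that binds CTLA-4, was higher at 24 h (26.3 ± 3.22 against 13.4 ± 0.883 CPM, adjusted p = 0.0115). It was also called higher at 0 h (log2 0.65, adjusted p = 0.0254) and at 72 h (log2 1.38, adjusted p = 0.00011). Ptpn6, which encodes the phosphatase SHP-1 recruited by several of the receptors, was lower at 72 h (162 ± 11.3 against 276 ± 1.54 CPM, adjusted p = 3.85e-05).

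Of 21 transcription factors tied to these receptors 20 were tested. In 41BB+ cells 5 of them were higher and 5 lower at 0 h, and 4 higher and 3 lower at 72 h, and medians were 0.06, -0.07 and -0.12 at the 3 times. The 10 of 20 called at 0 h stand beside 39.5% of all genes, and the 7 of 20 at 72 h beside 18.9%. At 24 h none was called by edgeR's test, 5 had an unadjusted p under 0.05, and DESeq2 called 1. Irf4, which is induced by T cell receptor signalling, was higher at 0 h (129 ± 20.3 against 26.6 ± 9.70 CPM, adjusted p = 5.04e-10) and lower at 72 h (34.0 ± 5.47 against 101 ± 19.9 CPM, adjusted p = 1.43e-06). Satb1, a chromatin organiser known to hold down Pdcd1, went the other way, at 399 ± 7.62 against 874 ± 44.9 CPM at 0 h (adjusted p = 1.61e-09) and 634 ± 47.3 against 411 ± 26.3 CPM at 72 h (adjusted p = 6.36e-05).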

How the data were processed

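Gene counts were deposited by the authors for all 18 libraries in 1 table, as whole-number counts per Ensembl gene, not normalized. Per the labels' protocols, total RNA went into a SMARTer stranded library kit (Takara). Per the submitters' processing notes, FastQC 0.11.9, Trimmomatic 0.38, HISAT2 2.2.1 and featureCounts were used with the build GRCm38. How featureCounts treated strand and multi-mapping reads, and on which annotation, is not stated, so reads of overlapping genes on opposite strands could be shared. GENCODE M21 gave symbols for 55141 of the 55487 identifiers, gene positions and exon lengths.

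Tests were run in R 4.3.3 by edgeR 4.0.16, with genes filtered by group (minimum count 10, minimum total 15), TMM factors, 1 mean per group over all 18 libraries, and robust quasi-likelihood tests. P-values were adjusted by Benjamini-Hochberg over the 13150 genes tested, with a threshold of 0.05. The code was tested on simulated data. The common biological coefficient of variation was 0.18. Alternatives were DESeq2 1.42.0, other scaling (relative log expression, RLE), no filter, a replicate block, the compared groups alone, removal of mitochondrial, ribosomal protein and the most abundant gene, and omission of each library. The 9 genes and all lists were chosen with earlier results of these data known. The text names the 9 genes, the genes that check the sort, of each list the called gene with the smallest adjusted p in each direction at each time, and the 2 genes most like each receptor. Marker lists covered T, B, dendritic, myeloid, killer, CD4 and regulatory, gamma-delta and endothelial cells. A second table, of sample annotation, was not used.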

Additional observations from a re-analysis of the deposited data

Results flagged for a closer look

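The change over time differed between 41BB+ and 41BB- cells, by edgeR's interaction test, in 7 of the 9 genes over at least 1 interval, Tigit and Btla being the exceptions. Of all genes tested, 23.0% were called over 0 to 24 h, 17.5% over 24 to 72 h and 40.9% over 0 to 72 h. The share of all genes called over at least 1 interval was not counted. Over 0 to 24 h the log2 change in 41BB+ minus that in 41BB- cells was -3.32 for Pdcd1, -5.86 for Lag3, 1.89 for Ctla4, -2.54 for Cd160 and -5.18 for Cd200. Over 24 to 72 h it was -2.38 for Havcr2, a call lost under 14 of 19 alternatives, and 2.17 for Vsir. Over 0 to 72 h it was -3.12 for Pdcd1, -6.09 for Lag3, -4.17 for Havcr2, 1.86 for Ctla4, 2.15 for Vsir, -2.96 for Cd160 and -4.76 for Cd200. The intervals share libraries, so these 14 values are not independent of each other. The 0 h libraries of 41BB- cells hold 3 counts of Lag3 and 7 of Havcr2, so the size of their values is set by few reads.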

How the results depend on the processing

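Over 90 single tests of the 9 genes, 52 were called and 46 of these calls held under every alternative, and 33 of the 38 tests without a call never gained one. Among all genes tested, the share called in a single comparison ran from 2.75% to 56.6%. How often the calls of other genes held was not counted. No called value changed direction, while some differences without a call changed sign. The 3 genes called between the populations at 72 h became 1 with RLE factors and 1 without a filter. For the interaction from 24 to 72 h, 2 became 1 with RLE factors, without a filter, with the replicate block and with a replicate block within each time, since Havcr2 was lost. Leaving out 1 library gave 1 to 2 calls for each of these 2 comparisons. It gave 7 between the populations at 0 h and 1 at 24 h, 6 to 7 from 0 to 24 h in 41BB+, 6 to 7 from 24 to 72 h in 41BB+, 6 to 8 from 0 to 24 h in 41BB-, 6 to 7 from 24 to 72 h in 41BB-, and 5 to 6 and 7 for the interactions over 0 to 24 and 0 to 72 h. Among other inhibitory receptors 0 calls at 24 h became 1 without a filter and 1 with DESeq2, and 1 call at 72 h became 2 with DESeq2. Among transcription factors 0 calls at 24 h became 4 without a filter and 1 with DESeq2. The cause of these changes was not tested. Of all genes tested at 24 h, 2.75% were called between the populations, 1.28% without a filter, 4.33% on the compared groups alone, 4.39% with the block within each time, and as few as 1.31% without 1 library. Without a filter more genes were tested, and the share called was between 6.02% and 20.4% in the other comparisons.

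The replicate numbers 1 to 3 are the Exp numbers of the sample titles, shared by both populations and all times. The labels do not say what these numbers pair, and the main tests do not use them. Deviations from group means in same-numbered libraries of the 2 populations had a median correlation of 0.107 over 9 pairs (5 above 0.1, lowest -0.043), against -0.0632 over 18 other pairs, and 14 of 18 libraries correlated best with their own number. The replicate block ended the calls of Cd160 at 72 h (adjusted p = 0.0502) and of the Havcr2 interaction over 24 to 72 h (0.0654), and no other call of the 9 genes. Depth limits Lag3 and Havcr2 in 41BB- cells at 0 h, where 3 counts over the group stand for 0.312 CPM. Tests on the compared groups alone left out Havcr2 at 0 and 24 h, since the filter removed it, and DESeq2 gave no adjusted p for it at 24 h.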
